A study of Mus musculus with 16 samples.

Results

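Cytochrome P450 enzymes are haem proteins that insert oxygen into sterols, retinoids, vitamin D, fatty acids and foreign compounds. Their genes were followed in mouse medullary thymic epithelial cells (mTEC), sorted into 4 populations. Members were all protein-coding genes whose symbol consists of Cyp, a family number, a subfamily letter and a gene number. The rule found 99 members among 43432 genes, of which 21551 are protein-coding, and 72 members had 10 or more reads in 4 or more of the 16 libraries. The other 27 members had 1 to 99 reads over all libraries together. Genes with other Cyp symbols, such as Cyp51 of cholesterol synthesis, are no members under this rule.

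Most P450 enzymes sit in the endoplasmic reticulum and take electrons from the reductase Por, while the mitochondrial members take them from ferredoxin (Fdx1). Expression of many members is confined to particular tissues, such as liver, gut, adrenal gland, skin, airway or olfactory mucosa. mTEC are known to express large numbers of such tissue-restricted genes, in part through the transcription factor Aire, and to display their products to developing T cells. In the thymus itself, P450 enzymes are known for local steroid synthesis and for the breakdown of retinoic acid.

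The mice were C57BL6.Aire-CreERT2.Ai14 animals of mixed sex, aged 5 to 6 weeks, and carried a tamoxifen-inducible Cre driven by Aire together with the Ai14 reporter. All animals received 2 mg tamoxifen and all cells were taken 7 days later, so all groups carry the allele and the drug. The reporter is red fluorescent protein (RFP), which with this allele labels cells with Aire expression during the tamoxifen pulse and their descendants, while RFP- cells can have an Aire history outside that window. Live cells without CD45 and with EPCAM were split by RFP into RFP+ and RFP-, and each of these into MHCIIhi and MHCIIlo by the MHC class II on the cell surface. Each of the 4 resulting populations has 4 libraries, with 12 pooled thymi per library. The libraries held 7.93 to 19.46 M counted reads, and those of RFP+ MHCIIlo came from 19400 to 20500 cells against at least 80500 elsewhere. Levels are counts per 1 M reads after scaling (CPM), listed in the order of replicates 1 to 4, or mean ± SD with n = 4. Differences are log2 fold changes, and a difference was called when its adjusted p in edgeR's quasi-likelihood test over 19617 genes was under 0.05. Nothing says that a library is more than 1 pool, so p-values measure the spread between these pools. In bulk libraries, fewer cells of a type and less RNA per cell cannot be told apart.

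Markers of several cell types followed the gates. The 8 epithelial and mTEC markers summed to 9395 to 11230 CPM in MHCIIhi and 4000 to 7025 CPM in MHCIIlo libraries, with Cd74, a gene of the MHC class II pathway, as the largest part (7593 and 8188 CPM on average in RFP- and RFP+ MHCIIhi, 2888 and 2223 in MHCIIlo). Cd74, Ciita and Aire were called lower in MHCIIlo in both label groups, while the epithelial genes Epcam (342.6 to 467 CPM among RFP- and 519.7 to 594.1 among RFP+ cells) and Krt5 (188.6 to 1342 and 269.1 to 470.3) were called higher. The other keratins of the list did not share this. Krt14 was called higher only among RFP- cells (2.08), Krt18 only among RFP+ cells (0.54), and Krt8 in neither. Aire averaged 978.7 CPM in RFP- MHCIIhi, 586.8 in RFP+ MHCIIhi, 37.91 in RFP- MHCIIlo and 50.82 in RFP+ MHCIIlo, with a label difference of 0.42 in MHCIIlo (edgeR adjusted p = 0.31). The summed level of 4 keratinocyte markers was 464 to 846 CPM in RFP+ MHCIIlo, 180.2 to 277 in RFP+ MHCIIhi, 27.7 to 31.6 in RFP- MHCIIhi, and 41.3 to 74.1 in RFP- MHCIIlo. That of 6 hepatocyte and enterocyte markers was 341 to 390.3 CPM in RFP+ MHCIIhi and 267 to 328 in RFP+ MHCIIlo, against 129.8 to 139 in RFP- MHCIIhi and 55.8 to 65.8 in RFP- MHCIIlo. This sum rested mostly on Apoa1, Ttr and Vil1. The liver genes Alb and Fgb were not called with the label in MHCIIhi, and averaged 13.47 and 14.1 CPM in RFP- MHCIIhi, 13.9 and 10.11 in RFP+ MHCIIhi, 0.1702 and 0.6456 in RFP- MHCIIlo, and 0.6528 and 1.351 in RFP+ MHCIIlo. The 7 mesenchymal markers summed to 426 to 967 CPM in RFP- MHCIIlo, and to at most 171 CPM in each of the other libraries, but Pdgfrb of that list was lower in MHCIIlo in both label groups. The 4 endothelial markers summed to 47.3 to 78.9 CPM in RFP- MHCIIlo and to 36.1 to 52.4 CPM in RFP+ MHCIIlo, and of these Tek was highest in RFP+ MHCIIlo (36.4 CPM on average against 20.41 in RFP- MHCIIlo). The 5 cortical epithelial markers were highest in RFP- MHCIIhi, at 1363 to 2673 CPM, as were the 6 thymocyte markers, at 223 to 484 CPM. No marker of these lists was at 0 in a population, and the part of these cell types in the results was not tested. In earlier results of these data RFP+ MHCIIlo replicates 1 and 4 stood apart, and without both 36 members were called higher and 3 lower with the label in MHCIIlo, against 37 and 4 with them.

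To show the regions next to the members that carry the main patterns, the 250 bases before the RefSeq transcription start are printed for 5 of them, from build GRCm38.p6. Cyp2b19, Cyp2a5 and Cyp2f2 are chromosome 7 neighbours that were higher with the RFP label, Cyp2f2 in the MHCIIhi gate and the other two in both gates, and Cyp1a2 and Cyp26a1 are members that were highest in RFP- MHCIIhi. Capitals mark matches on either strand to TATAAA (the TATA box), GCGTG (core of the aryl hydrocarbon receptor site), AGGTCA (a nuclear receptor core), AGTTCA (its retinoic acid receptor variant) or TGACTCA (the AP-1 site).
Cyp2b19, chr7:26756892-26757141, plus strand: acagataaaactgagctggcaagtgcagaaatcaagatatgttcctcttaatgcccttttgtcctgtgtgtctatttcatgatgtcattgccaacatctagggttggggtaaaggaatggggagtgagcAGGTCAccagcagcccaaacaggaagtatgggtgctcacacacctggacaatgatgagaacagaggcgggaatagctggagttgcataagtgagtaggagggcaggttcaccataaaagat
Cyp2a5, chr7:26835089-26835338, plus strand: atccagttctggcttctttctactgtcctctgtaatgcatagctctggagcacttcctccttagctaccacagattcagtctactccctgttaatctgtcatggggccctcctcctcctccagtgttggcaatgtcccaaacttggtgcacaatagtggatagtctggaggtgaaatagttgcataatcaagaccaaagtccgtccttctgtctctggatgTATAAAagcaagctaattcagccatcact
Cyp2f2, chr7:27119705-27119954, plus strand: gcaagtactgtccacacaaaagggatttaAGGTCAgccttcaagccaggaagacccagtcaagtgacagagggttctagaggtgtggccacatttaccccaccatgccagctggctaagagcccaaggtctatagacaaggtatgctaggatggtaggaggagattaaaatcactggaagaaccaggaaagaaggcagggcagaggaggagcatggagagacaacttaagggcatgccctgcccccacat
Cyp1a2, chr9:57683656-57683905, minus strand: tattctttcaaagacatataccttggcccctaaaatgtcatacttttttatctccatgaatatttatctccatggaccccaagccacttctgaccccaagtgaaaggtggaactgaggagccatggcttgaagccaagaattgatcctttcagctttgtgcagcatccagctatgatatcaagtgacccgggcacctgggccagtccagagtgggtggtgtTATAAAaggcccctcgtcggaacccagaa
Cyp26a1, chr19:37697558-37697807, plus strand: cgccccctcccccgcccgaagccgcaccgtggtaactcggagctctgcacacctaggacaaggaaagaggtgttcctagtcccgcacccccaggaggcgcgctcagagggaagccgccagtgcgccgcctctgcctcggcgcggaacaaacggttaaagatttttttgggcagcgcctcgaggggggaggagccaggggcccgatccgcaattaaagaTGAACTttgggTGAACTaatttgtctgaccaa
The Cyp2b19 and Cyp2f2 windows held AGGTCA, 121 and 221 bases before the start, and no other searched motif. TATAAA lay 29 bases before the start of both Cyp2a5 and Cyp1a2. The Cyp26a1 window held 2 copies of AGTTCA on the opposite strand, 5 bases apart, which read as TGAACT in the printed strand. A promoter entry was matched for 76 members, 56 of them among the 72. TATAAA was found in 36.8% of the 76 members and in 13% of the promoters of 27025 genes. AGGTCA was in 22.4% of members and 13.8% of all, AGTTCA in 15.8% and 11.9%, TGACTCA in 5.3% and 4.4%, and GCGTG in 19.7% and 28.2%. These are matches of letters in a window, not binding sites, and many members descend from common ancestors. The GENCODE starts of Cyp2a5, Cyp2f2, Cyp1a2 and Cyp26a1 lie within the printed windows, and that of Cyp2b19 directly follows its window.

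The summed level of the 99 members was highest in RFP+ MHCIIlo, at 1117 ± 79.4 CPM, followed by 881.5 ± 34.9 in RFP+ MHCIIhi, 563 ± 31.3 in RFP- MHCIIlo and 419.6 ± 12.4 in RFP- MHCIIhi. The ranges of the 4 populations did not overlap. Much of this came from Cyp2a5, Cyp2b19, Cyp2f2 and Cyp2g1, chosen as a set after their values were seen. They held 64.9 to 69.3% of the family's sum in RFP+ MHCIIlo, 43.4 to 57.1% in RFP- MHCIIlo, 44.9 to 51.1% in RFP+ MHCIIhi and 15.7 to 16.2% in RFP- MHCIIhi. The other 95 members together came to 436 to 457 CPM in RFP+ MHCIIhi, 335 to 375 in RFP+ MHCIIlo, 338 to 364 in RFP- MHCIIhi and 261 to 305 in RFP- MHCIIlo, so their order differed from that of the whole family.

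**Figure D1:**
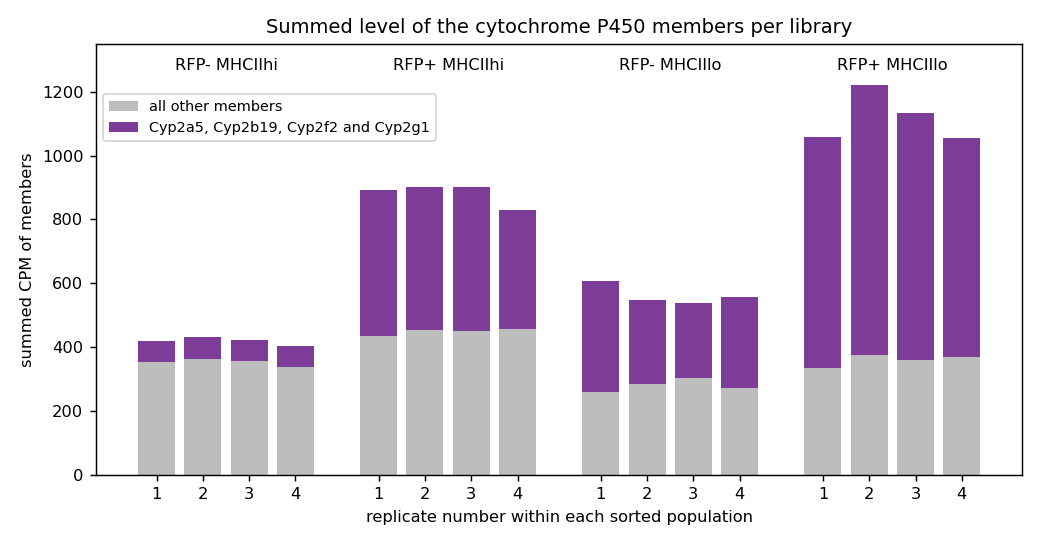
Summed CPM of the 99 members in each of the 16 libraries, grouped by sorted population. The purple part is the sum of Cyp2a5, Cyp2b19, Cyp2f2 and Cyp2g1 and the grey part that of the other members. The RFP+ MHCIIlo libraries are highest, and the purple part is smallest in RFP- MHCIIhi.

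The breadth of the family also differed. With each library scaled to the lowest total of 7.93 M, 26 to 30.2 members were expected to have 10 or more reads in RFP- MHCIIlo, against 41.0 to 42.0 in RFP+ MHCIIlo, 43.4 to 47.5 in RFP- MHCIIhi and 47.9 to 51.7 in RFP+ MHCIIhi. For all protein-coding genes the medians of the same count were 13737 in RFP- MHCIIlo, 14341 in RFP+ MHCIIlo, 15622 in RFP- MHCIIhi and 15338 in RFP+ MHCIIhi. Of the 72 members, 22 were highest in RFP- MHCIIhi (30.6%, against 32.2% of 16948 protein-coding genes that met the same read rule). RFP+ MHCIIhi held the maximum of 19 members (26.4% against 18.1%), RFP+ MHCIIlo that of 20 (27.8% against 24.3%) and RFP- MHCIIlo that of 11 (15.3% against 25.4%).

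**Figure D2:**
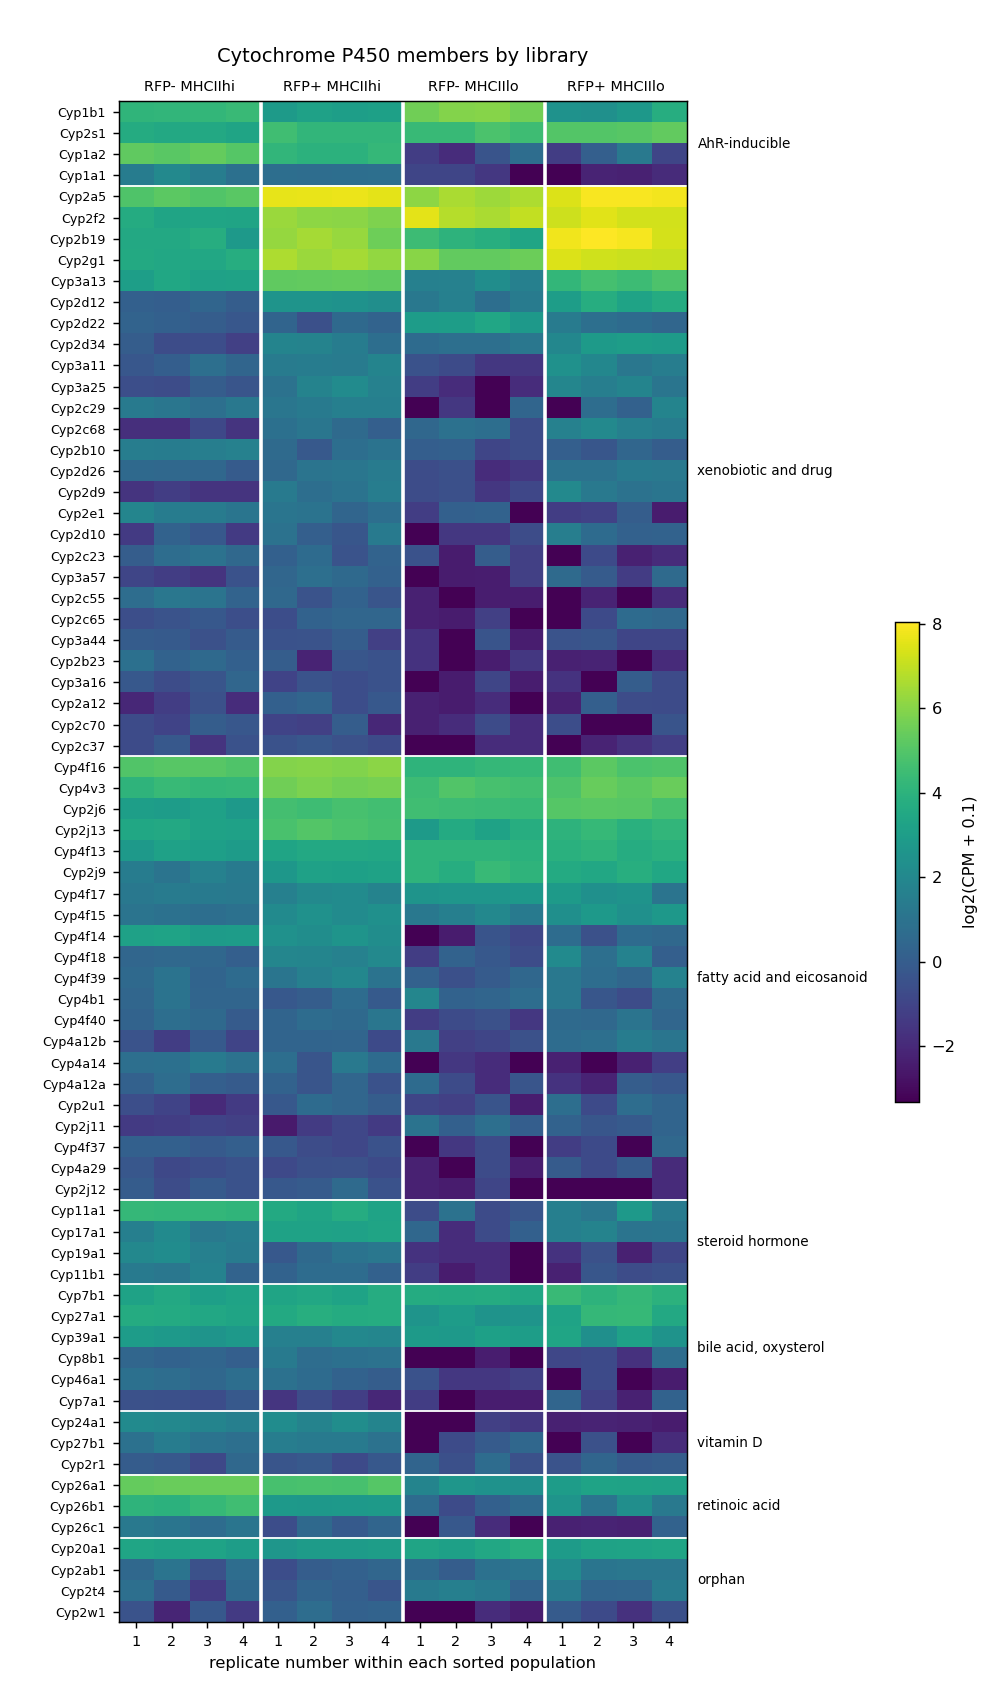
Colour gives log2(CPM + 0.1) of the 72 members in each of the 16 libraries, with members as rows grouped by known role and ordered by mean level, and libraries as columns grouped by population. Cyp2a5, Cyp2f2, Cyp2b19 and Cyp2g1 form the brightest rows, and many dim rows are darkest in RFP- MHCIIlo.

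Of the 72 members, 68 had enough reads for the fit, and Cyp2c37, Cyp2c70, Cyp4a29 and Cyp7a1 did not. In the MHCIIlo gate, 37 of the 68 were higher and 4 lower in RFP+ than in RFP- cells, where 28.9% and 22.7% of all tested genes were called higher and lower. The 37 make 54.4% of the tested members and the 4 make 5.88%. The median log2 difference of the members was 0.92, and that of all tested genes 0.074. In the MHCIIhi gate, 27 were higher and 10 lower with the label, against 23.8% and 21.2% of all tested genes, and the 2 counts are 39.7% and 14.7% of the members (median 0.29, all genes -0.016). Members called higher whose libraries did not overlap were 26 in MHCIIlo (38.2% of the 68, against 20.9% of all tested genes) and 24 in MHCIIhi (35.3% against 22.1%). Those called lower without overlap were 2 (2.94% against 17.4%) and 10 (14.7% against 20%).

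Between the gates, members were more often lower at low MHC class II among RFP- cells, while among RFP+ cells the shares were nearer those of all tested genes. Among RFP- cells, 18 were higher and 35 lower in MHCIIlo than in MHCIIhi, that is 26.5% and 51.5% of the members against 33.5% and 35.6% of all tested genes (median -1.27, all genes -0.004). Among RFP+ cells, 15 were higher and 23 lower, that is 22.1% and 33.8% against 27.5% and 28.1% (median -0.29, all genes 0.007). Without overlap of libraries, 16 were called higher and 31 lower among RFP- cells (23.5% and 45.6%, against 29.9% and 32.9% of all tested genes), and 14 higher and 21 lower among RFP+ cells (20.6% and 30.9%, against 21.7% and 23.7%). These 4 comparisons share libraries in pairs and are given side by side.

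In every population except RFP- MHCIIhi the 3 members with the highest levels per length were Cyp2 genes of a cluster on chromosome 7. It holds 13 members, 9 of them among the 72, within 1356.2 kb (GRCm38, positions 25802475 to 27158668), with 5 other protein-coding genes between them. Per kb of exon, Cyp2a5 stood first in RFP+ MHCIIlo at 109 ± 16 CPM, followed by Cyp2f2 at 78.4 ± 8.33, Cyp2g1 at 70.4 ± 7.53 and Cyp2b19 at 53.2 ± 10.4. The next member, Cyp4v3, was at 9.89 ± 1.76 CPM per kb. Cyp2f2 and Cyp2g1 did not differ beyond their SD in that order, and neither did Cyp4v3, Cyp4f16 and Cyp2j6 after them. In RFP- MHCIIhi the order was another, with Cyp26a1 at 21.5 ± 0.639, Cyp1a2 at 18.4 ± 1.67 and Cyp2a5 at 16.1 ± 1.36 CPM per kb.

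Cyp2b19, an arachidonic acid epoxygenase of keratinocytes, lies on chromosome 7 at 26757142 to 26772630. Cyp2b19 was at 11.4, 11.5, 13.7 and 6.95 CPM in RFP- MHCIIhi and at 77, 91.8, 77.7 and 47.2 CPM in RFP+ MHCIIhi. It was at 21.8, 16, 13.7 and 10.2 CPM in RFP- MHCIIlo and at 226, 265, 235 and 162 CPM in RFP+ MHCIIlo. Each RFP+ MHCIIlo library was above each library of the other populations, and the 2 RFP- populations overlapped. With the label it was 14.5-fold higher in MHCIIlo (3.86, SE 0.22, adjusted p = 9.2e-13) and 6.81-fold higher in MHCIIhi (2.77, SE 0.22, adjusted p = 2.7e-10). Among RFP+ cells it was higher in MHCIIlo than in MHCIIhi (1.59, SE 0.19, adjusted p = 2.3e-07), while among RFP- cells the difference was not called (0.50, SE 0.23, adjusted p = 0.057). That last difference was called without RFP- MHCIIhi replicate 3 (0.62), RFP- MHCIIlo replicate 4 (0.66), RFP+ MHCIIhi replicate 4 (0.50) or RFP+ MHCIIlo replicate 4 (0.50), and also with no filter on low counts (0.48) and in a fit of the 2 RFP- populations alone (0.49). The keratinocyte markers given above were also highest in the RFP+ populations.

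Cyp2g1, a steroid hydroxylase of the olfactory mucosa, lies on chromosome 7 at 26808892 to 26821205. Cyp2g1 was at 12, 11.4, 11.2 and 13.5 CPM in RFP- MHCIIhi and at 101, 80.7, 92.8 and 74.2 CPM in RFP+ MHCIIhi. It was at 65.7, 39.8, 39.8 and 44.4 CPM in RFP- MHCIIlo and at 174, 151, 142 and 138 CPM in RFP+ MHCIIlo. No libraries of different populations overlapped, and the order was RFP+ MHCIIlo, RFP+ MHCIIhi, RFP- MHCIIlo, RFP- MHCIIhi. It was higher with the label in MHCIIhi (2.86, SE 0.14, adjusted p = 1.5e-13) and in MHCIIlo (1.67, SE 0.13, adjusted p = 2.2e-10), and higher in MHCIIlo among RFP+ cells (0.79) and RFP- cells (1.97).

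Cyp2a5, the coumarin and nicotine hydroxylase of liver and nasal mucosa, lies on chromosome 7 at 26835305 to 26843548. Cyp2a5 was at 30.4, 36.2, 31.4 and 35.1 CPM in RFP- MHCIIhi and at 197, 206, 211 and 193 CPM in RFP+ MHCIIhi. It was at 68.7, 96.5, 82.7 and 100.4 CPM in RFP- MHCIIlo and at 177, 248, 246 and 230.2 CPM in RFP+ MHCIIlo. It was 6.06-fold higher with the label in MHCIIhi (2.60, SE 0.12, adjusted p = 2.9e-14) and 2.58-fold higher in MHCIIlo (1.37, SE 0.11, adjusted p = 3.6e-10). The 2 RFP+ populations overlapped, because RFP+ MHCIIlo replicate 1 was below all RFP+ MHCIIhi libraries, and their difference was not called (0.16, SE 0.11, adjusted p = 0.21). It was called without that library (0.26) and without both replicates 1 and 4 (0.28). Of the 50-base stretches of Cyp2a5 transcripts, 40.8% occur in another gene, mostly in Cyp2a4, which had 99 reads over all libraries, so the split of reads between this pair is uncertain.

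Cyp2f2, the enzyme that activates naphthalene in airway club cells, lies on chromosome 7 at 27119909 to 27133660. Cyp2f2 was at 12.6, 9.81, 10.1 and 9.82 CPM in RFP- MHCIIhi and at 81.2, 70.1, 67 and 57.8 CPM in RFP+ MHCIIhi. It was at 191, 109, 97.7 and 129 CPM in RFP- MHCIIlo and at 145, 183, 153 and 154 CPM in RFP+ MHCIIlo. RFP- MHCIIhi was below all other libraries, RFP- MHCIIlo replicate 1 was above all others, and the MHCIIlo populations overlapped. Among RFP- cells it was 12.3-fold higher in MHCIIlo (3.62, SE 0.17, adjusted p = 1.2e-14), more than any other member in that comparison, and among RFP+ cells 2.3-fold higher (1.20, SE 0.15, adjusted p = 3.8e-07). It was higher with the label in MHCIIhi (2.69, SE 0.17, adjusted p = 6e-12), and in MHCIIlo the difference was not called (0.27, SE 0.15, adjusted p = 0.13). Without RFP- MHCIIlo replicate 1 that difference was called at 0.50, and with no filter on low counts at 0.26.

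**Figure D3:**
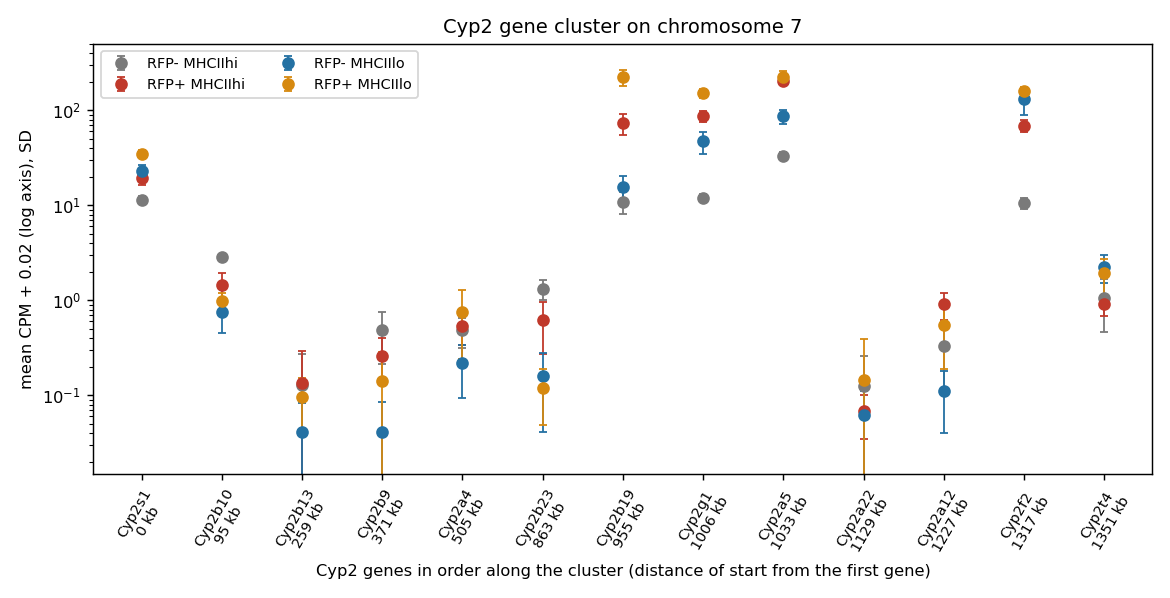
Mean CPM plus 0.02 with SD (log axis, n = 4) of the 13 Cyp2 members of the chromosome 7 cluster, in their order along the chromosome, with the distance of each start from that of Cyp2s1. Colours are the 4 populations. Cyp2b19, Cyp2g1, Cyp2a5 and Cyp2f2 stand above their neighbours, and Cyp2a22 and Cyp2a12 between them stay low.

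High levels were not shared by the whole cluster. Cyp2b19, Cyp2g1, Cyp2a5 and Cyp2f2 lie within 376.5 kb, and Cyp2a22 and Cyp2a12 lie between them. Cyp2a22 had 17 reads in all libraries, and Cyp2a12 was at 0.549 to 1.23 CPM in RFP+ MHCIIhi, against 0.108 to 0.975 CPM in RFP+ MHCIIlo. Cyp2a12 was still called higher with the label in MHCIIlo (2.40, SE 0.79) and MHCIIhi (1.58, SE 0.52), with overlapping libraries in both gates. The first call was lost without RFP+ MHCIIlo replicate 2 (1.96), and the second without RFP- MHCIIhi replicate 1 (1.29) or 4 (1.37) or RFP+ MHCIIhi replicate 2 (1.36). Cyp2b10, the phenobarbital-inducible member, and Cyp2b23 went the other way in MHCIIhi, at -0.97, SE 0.29 and -1.15, SE 0.46. In the sum of Cyp2b reads, which Cyp2b19 dominates, the MHCIIhi difference was 2.29. Cyp2b23 was at 1.72, 1.1, 1.38 and 1.03 CPM in RFP- MHCIIhi and at 0.935, 0.117, 0.713 and 0.631 CPM in RFP+ MHCIIhi. It was at 0.213, 0, 0.0853 and 0.258 CPM in RFP- MHCIIlo and at 0.108, 0.122, 0 and 0.166 CPM in RFP+ MHCIIlo. Its highest libraries were all RFP- MHCIIhi, and the RFP+ MHCIIlo level rests on 4 reads. Cyp2b23 was lower in MHCIIlo among RFP- cells (-3.19, SE 0.62, adjusted p = 8.5e-05) and RFP+ cells (-2.42, SE 0.75, adjusted p = 0.0086). Its call in MHCIIhi (adjusted p = 0.044) was lost without RFP- MHCIIhi replicate 1 (-0.97), 2 (-1.22), 3 (-1.13) or 4 (-1.25), without RFP+ MHCIIhi replicate 2 (-0.79), 3 (-1.27) or 4 (-1.18), and without RFP- MHCIIlo replicate 1 or 3 (-1.15 each). It was also lost with DESeq2 (-1.17, adjusted p = 0.066) and with no filter on low counts (-1.12, adjusted p = 0.092).

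**Figure D4:**
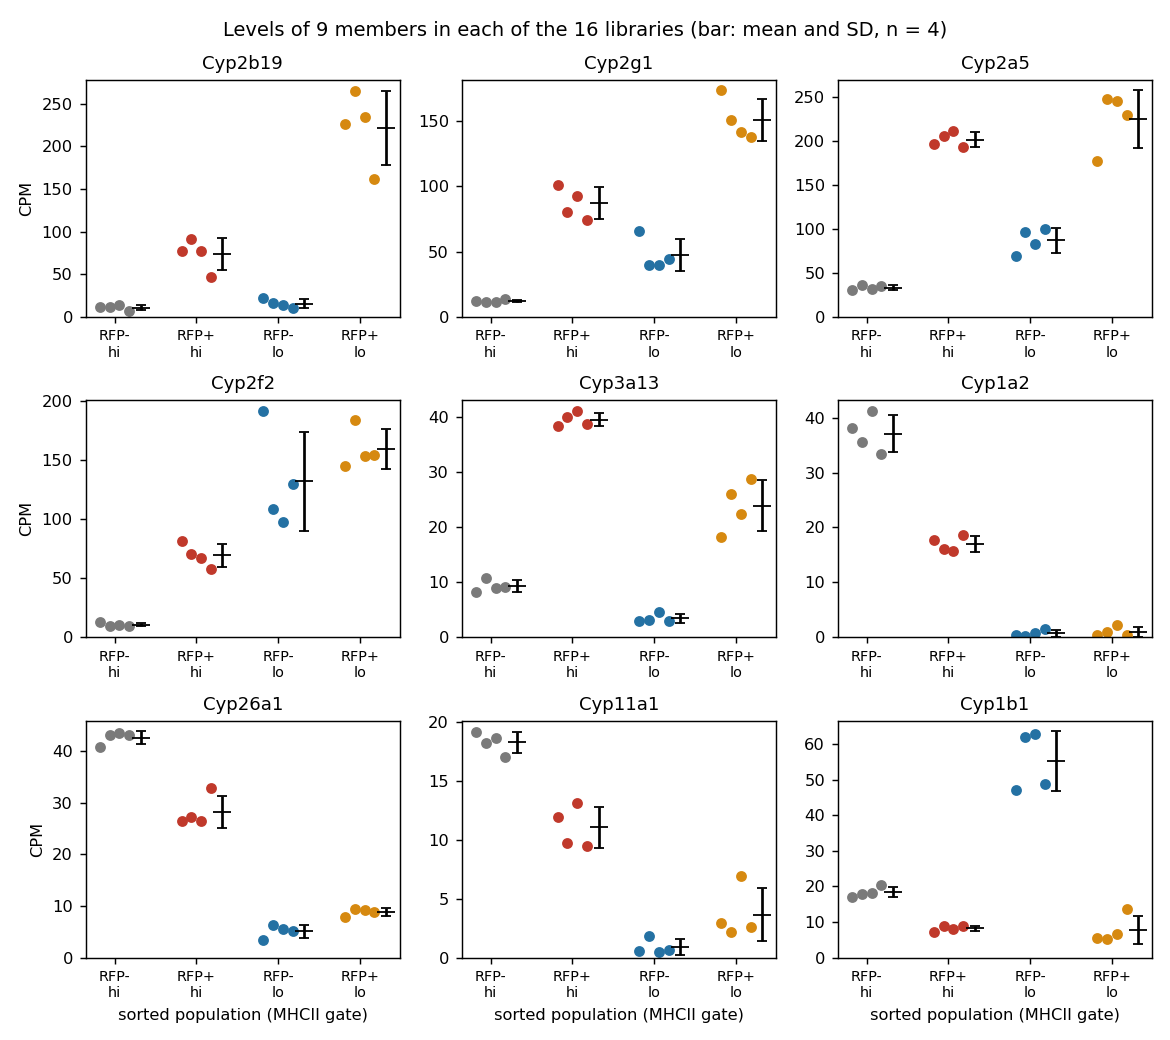
CPM of 9 members in each library (points), with mean and SD beside them (n = 4), by sorted population. Cyp2b19, Cyp2g1 and Cyp2a5 are higher in RFP+ cells of both gates, Cyp1a2, Cyp26a1 and Cyp11a1 are highest in RFP- MHCIIhi, and Cyp1b1 is highest in RFP- MHCIIlo.

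Counting all 44 members known for xenobiotic and drug metabolism in families 2 and 3, 27 passed the read rule and 25 were tested. In MHCIIlo 16 of the 25 rose with the label and 1 fell (64% and 4%, against 28.9% and 22.7% of all tested genes, median 1.91). In MHCIIhi 14 rose and 2 fell (56% and 8%, against 23.8% and 21.2%, median 1.33). Among RFP- cells 7 rose and 14 fell from MHCIIhi to MHCIIlo (28% and 56%, against 33.5% and 35.6%, median -1.47), and among RFP+ cells 6 rose and 5 fell (24% and 20%, against 27.5% and 28.1%, median -0.10).

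The Cyp3a genes, relatives of the main human drug-metabolising P450, were higher with the label in both gates where called. Cyp3a13, known from the intestine, lies on chromosome 5 at 137892932 to 137921619. Cyp3a13 was at 8.3, 10.8, 8.9 and 9.19 CPM in RFP- MHCIIhi and at 38.4, 40.0, 41.2 and 38.8 CPM in RFP+ MHCIIhi. It was at 2.98, 3.05, 4.61 and 3.01 CPM in RFP- MHCIIlo and at 18.1, 26.1, 22.4 and 28.9 CPM in RFP+ MHCIIlo. No libraries of different populations overlapped, with RFP+ MHCIIhi highest. It was 6.97-fold higher with the label in MHCIIlo (2.80, SE 0.16, adjusted p = 9.3e-13) and 4.27-fold higher in MHCIIhi (2.09, SE 0.13, adjusted p = 8e-12).

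Cyp3a11, a main hepatic member, lies on chromosome 5 at 145854426 to 145879964. Cyp3a11 was at 0.742, 0.968, 1.69 and 1.21 CPM in RFP- MHCIIhi and at 2.57, 2.62, 2.52 and 3.37 CPM in RFP+ MHCIIhi. It was at 0.638, 0.509, 0.256 and 0.258 CPM in RFP- MHCIIlo and at 5.29, 3.78, 2.18 and 2.74 CPM in RFP+ MHCIIlo. It was higher with the label in MHCIIlo (3.07, SE 0.40, adjusted p = 6.5e-07) and MHCIIhi (1.29, SE 0.31, adjusted p = 0.0017), without overlap in either gate. Among RFP- cells it fell by 1.45 from MHCIIhi to MHCIIlo, while the RFP+ populations overlapped (0.33, SE 0.30, not called). Cyp3a25, on chromosome 5 at 145977194 to 146009618, was also lowest in RFP- MHCIIlo and highest in the 2 RFP+ populations. Cyp3a25 was at 0.557, 0.516, 0.921 and 0.689 CPM in RFP- MHCIIhi and at 1.87, 3.33, 4.39 and 3.09 CPM in RFP+ MHCIIhi. It was at 0.319, 0.17, 0 and 0.172 CPM in RFP- MHCIIlo and at 3.67, 2.8, 3.43 and 2.07 CPM in RFP+ MHCIIlo. Its label difference was 4.16, SE 0.49 in MHCIIlo and 2.26, SE 0.35 in MHCIIhi, with no overlap in either gate. Of its 50-base stretches 26.8% also occur elsewhere, mostly in Cyp3a59. Cyp3a57 was called higher with the label in both gates, whereas Cyp3a16 and Cyp3a44 were not called with the label in either gate.

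Of the Cyp2d genes, Cyp2d12, Cyp2d34, Cyp2d9 and Cyp2d10 were higher with the label in both gates, and Cyp2d26, a hepatic member, in MHCIIlo. Cyp2d34 lies on chromosome 15 at 82615965 to 82620946. Cyp2d34 was at 0.928, 0.516, 0.537 and 0.344 CPM in RFP- MHCIIhi and at 3.35, 3.33, 2.63 and 1.61 CPM in RFP+ MHCIIhi. It was at 1.49, 1.7, 1.71 and 2.15 CPM in RFP- MHCIIlo and at 3.78, 7.31, 8 and 7.55 CPM in RFP+ MHCIIlo. RFP+ MHCIIlo was highest, with replicate 1 well below its other libraries, and no libraries of RFP+ and RFP- cells overlapped within a gate. Its label difference was 1.91, SE 0.30 in MHCIIlo and 2.17, SE 0.33 in MHCIIhi. Cyp2d9, a testosterone hydroxylase of the male liver, lies on chromosome 15 at 82433437 to 82456845. Cyp2d9 was at 0.232, 0.323, 0.23 and 0.23 CPM in RFP- MHCIIhi and at 2.42, 1.63, 1.92 and 2.74 CPM in RFP+ MHCIIhi. It was at 0.531, 0.594, 0.256 and 0.43 CPM in RFP- MHCIIlo and at 4, 2.32, 1.87 and 2.07 CPM in RFP+ MHCIIlo. Both RFP+ populations were above both RFP- populations (2.48, SE 0.38 in MHCIIlo and 3.05, SE 0.38 in MHCIIhi), and the 2 RFP+ populations overlapped. Cyp2d9 shares 29% of its stretches with other genes, 10.7% with Cyp2d12, and Cyp2d10 shares 40.5%, mostly with Cyp2d11. The mice were of mixed sex and pooled, so sex could not be compared.

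Of the tested Cyp2d genes, only Cyp2d22 was lower with the label in MHCIIlo. It lies on chromosome 15 at 82370527 to 82380260. Cyp2d22 was at 1.11, 1.03, 0.921 and 0.747 CPM in RFP- MHCIIhi and at 1.17, 0.583, 1.37 and 1.12 CPM in RFP+ MHCIIhi. It was at 7.76, 7.97, 10.7 and 6.97 CPM in RFP- MHCIIlo and at 2.59, 1.71, 1.45 and 1.24 CPM in RFP+ MHCIIlo. Each RFP- MHCIIlo library was above every other library, and RFP+ MHCIIhi overlapped with RFP- MHCIIhi and with RFP+ MHCIIlo. It was 8.64-fold higher in MHCIIlo than MHCIIhi among RFP- cells (3.11, SE 0.27, adjusted p = 4.5e-10), and 4.81-fold lower with the label in MHCIIlo (-2.27, SE 0.27, adjusted p = 1.7e-07). With the reads of all Cyp2d members summed, the label difference in MHCIIlo turned to 0.92. The uncalled difference among RFP+ cells (0.70, SE 0.31) was called without RFP+ MHCIIhi replicate 3 (0.87) or RFP+ MHCIIlo replicate 4 (0.85). The sum of the mesenchymal markers, at 426 to 967 CPM, was highest in the same population, and their part in the Cyp2d22 level was not tested.

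The Cyp2c genes, mostly hepatic, were low. Cyp2c68 lies on chromosome 19 at 39688834 to 39741054. Cyp2c68 was at 0.186, 0.194, 0.461 and 0.23 CPM in RFP- MHCIIhi and at 1.72, 2.1, 1.43 and 0.982 CPM in RFP+ MHCIIhi. It was at 1.28, 1.78, 1.62 and 0.516 CPM in RFP- MHCIIlo and at 3.13, 4.02, 3.01 and 2.65 CPM in RFP+ MHCIIlo. It rose with the label in MHCIIlo (1.29, SE 0.35) and MHCIIhi (2.57, SE 0.42) and was higher in MHCIIlo among RFP- (2.31, SE 0.45) and RFP+ cells (1.03, SE 0.33). With all Cyp2c reads summed, the gate differences became -1.66 and -0.49, the label call in MHCIIhi was lost (0.09), and 43.3% of its stretches are shared, mostly with Cyp2c40. Cyp2c55 was the opposite case, at 1.15 to 2.19 CPM in RFP- MHCIIhi and with 3 reads in each MHCIIlo population. Cyp2c29 and Cyp2c65 were called higher with the label in MHCIIlo, from 0 to 1.2 to 0 to 3.4 CPM and from 0 to 0.341 to 0 to 1.45 CPM. Cyp2c23, an epoxygenase of kidney, fell from MHCIIhi to MHCIIlo in both label groups. The ratio of Cyp2c55 in RFP- MHCIIhi to RFP- MHCIIlo was 25.1 (95% exact interval 8.37 to 123, counting error only).

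Cyp2e1, the ethanol-oxidising P450 of liver, lies on chromosome 7 at 140763739 to 140774987. Cyp2e1 was at 3.48, 2.65, 2.53 and 2.07 CPM in RFP- MHCIIhi and at 2.03, 1.93, 1.21 and 1.61 CPM in RFP+ MHCIIhi. It was at 0.319, 1.02, 1.11 and 0 CPM in RFP- MHCIIlo and at 0.324, 0.366, 0.935 and 0.0829 CPM in RFP+ MHCIIlo. MHCIIhi libraries were above MHCIIlo libraries of the same label, and the difference was -2.10, SE 0.50 among RFP- and -2.0, SE 0.57 among RFP+ cells. The latter was -2.79 without RFP+ MHCIIlo replicate 3, the highest library of its group, and its call was lost without both replicates 1 and 4 (-1.32). The label made no called difference in either gate, and in MHCIIlo the groups overlapped (-0.58, SE 0.67). In a fit of the 2 MHCIIhi populations alone the MHCIIhi difference was called (-0.68).

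Cyp1a1, Cyp1a2, Cyp1b1 and Cyp2s1 are known targets of the aryl hydrocarbon receptor, a ligand-activated sensor of dietary and environmental compounds. They did not move together. Cyp1a2, which oxidises caffeine in the liver, lies on chromosome 9 at 57676937 to 57683703. Cyp1a2 was at 38.1, 35.6, 41.1 and 33.3 CPM in RFP- MHCIIhi and at 17.6, 16, 15.7 and 18.7 CPM in RFP+ MHCIIhi. It was at 0.319, 0.17, 0.682 and 1.55 CPM in RFP- MHCIIlo and at 0.324, 0.975, 2.29 and 0.415 CPM in RFP+ MHCIIlo. Each MHCIIhi library was above each MHCIIlo library, and RFP- MHCIIhi was above RFP+ MHCIIhi. From MHCIIhi to MHCIIlo it was 52.6-fold lower among RFP- cells (-5.72, SE 0.32, adjusted p = 1.8e-13) and 17.2-fold lower among RFP+ cells (-4.11, SE 0.32, adjusted p = 2.1e-10). The RFP- difference was -6.52 without RFP- MHCIIlo replicate 4, and the RFP+ difference -4.96 without RFP+ MHCIIlo replicate 3. With the label it fell in MHCIIhi (-1.13, SE 0.20, adjusted p = 7.9e-05), and in MHCIIlo the libraries overlapped (0.49, SE 0.53, not called). Without both RFP+ MHCIIlo replicates 1 and 4 the latter was called at 1.26.

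Cyp1a1, the most inducible member of the group, lies on chromosome 9 at 57687928 to 57703824. Cyp1a1 was at 2.6, 3.94, 2.76 and 1.72 CPM in RFP- MHCIIhi and at 1.64, 1.57, 1.65 and 1.68 CPM in RFP+ MHCIIhi. It was at 0.425, 0.424, 0.256 and 0 CPM in RFP- MHCIIlo and at 0, 0.122, 0.104 and 0.166 CPM in RFP+ MHCIIlo. It had 4 reads in the whole of RFP+ MHCIIlo. It was lower in MHCIIlo among RFP- cells (-3.30, SE 0.46, adjusted p = 1.1e-06) and RFP+ cells (-3.89, SE 0.60, adjusted p = 6.9e-06), without overlap. The label differences were -1.33, SE 0.81 in MHCIIlo and -0.74, SE 0.34 in MHCIIhi, not called. Each was called in some fits without a library, the first without RFP- MHCIIlo replicate 4 (-1.76), and the second without RFP- MHCIIhi replicate 4 (-0.92) or RFP- MHCIIlo replicate 4 (-0.74). The second was also called without both RFP+ MHCIIlo replicates 1 and 4 (-0.74) and in a fit of the 2 MHCIIhi populations alone (-0.73).

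Cyp1b1, which hydroxylates oestrogens and is known from extrahepatic and stromal tissue, lies on chromosome 17 at 79701537 to 79715061. Cyp1b1 was at 17.1, 18, 18.3 and 20.5 CPM in RFP- MHCIIhi and at 7.17, 8.87, 8.12 and 8.77 CPM in RFP+ MHCIIhi. It was at 47.2, 62.1, 62.9 and 48.9 CPM in RFP- MHCIIlo and at 5.51, 5.12, 6.65 and 13.7 CPM in RFP+ MHCIIlo. RFP- MHCIIlo was above all other libraries, RFP- MHCIIhi came next, and the RFP+ populations overlapped. With the label it was 6.93-fold lower in MHCIIlo (-2.79, SE 0.20, adjusted p = 3.3e-11) and 2.24-fold lower in MHCIIhi (-1.16, SE 0.19, adjusted p = 2.1e-05). Among RFP- cells it was 3-fold higher in MHCIIlo (1.58, SE 0.17, adjusted p = 2.8e-08). RFP+ MHCIIlo replicate 4 was the highest of its group, and without it the difference between RFP+ populations was called at -0.51, against -0.05 with it. The sum of the mesenchymal markers was highest in RFP- MHCIIlo too (426 to 967 CPM). That of the endothelial markers overlapped between RFP- MHCIIlo (47.3 to 78.9 CPM) and RFP+ MHCIIlo (36.1 to 52.4 CPM). Of these, Cdh5 (-4.29), Kdr (-4.13) and Pecam1 (-1.78) were lower with the label in MHCIIlo, and Tek was higher (0.84). The part of both marker lists in the Cyp1b1 level was not tested. Cyp2s1, an epithelial member, rose in all 4 comparisons, by 0.61 and 0.74 with the label in MHCIIlo and MHCIIhi, and by 0.86 and 1.00 from MHCIIhi to MHCIIlo in RFP+ and RFP- cells.

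Among the 29 members known for fatty acid and eicosanoid hydroxylation (families 2J, 2U and 4), 21 passed the read rule and 20 were tested. With the label 11 rose and 1 fell in MHCIIlo (55% and 5%, against 28.9% and 22.7% of all tested genes, median 0.62), and 10 rose and 1 fell in MHCIIhi (50% and 5%, against 23.8% and 21.2%, median 0.72). Between the gates the shares were near those of all tested genes. There 7 rose and 6 fell among RFP- cells (35% and 30%, against 33.5% and 35.6%, median 0.08), and 4 rose and 6 fell among RFP+ cells (20% and 30%, against 27.5% and 28.1%, median -0.04). The best expressed were Cyp4f16, at 62.8 ± 3.31 CPM in RFP+ MHCIIhi, Cyp4v3, mutated in a human corneoretinal dystrophy, at 51.6 ± 3.14 CPM, and Cyp2j6 and Cyp2j13, at 24.9 ± 1.78 CPM and 28.5 ± 2.66 CPM. All of these rose with the label in both gates. Their label differences in MHCIIhi were 0.95, SE 0.10 for Cyp4f16, 1.46, SE 0.12 for Cyp4v3, 1.64, SE 0.11 for Cyp2j6 and 1.48, SE 0.15 for Cyp2j13.

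Cyp2j9, a member described in brain, lies on chromosome 4 at 96568429 to 96591578. Cyp2j9 was at 2.64, 2, 3.07 and 2.47 CPM in RFP- MHCIIhi and at 6.39, 8.87, 8.72 and 9.26 CPM in RFP+ MHCIIhi. It was at 16.7, 13.6, 20.4 and 16.7 CPM in RFP- MHCIIlo and at 12.2, 11.3, 13.8 and 10.9 CPM in RFP+ MHCIIlo. RFP- MHCIIhi was below all other libraries. It was higher in MHCIIlo among RFP- cells (2.73, SE 0.17, adjusted p = 1.9e-12) and RFP+ cells (0.53, SE 0.16, adjusted p = 0.0064), and higher with the label in MHCIIhi (1.71, SE 0.17, adjusted p = 2.2e-08). In MHCIIlo it was lower with the label (-0.48, SE 0.15, adjusted p = 0.011), with overlapping libraries, and this call was lost without RFP- MHCIIlo replicate 3 (-0.38) or both RFP+ MHCIIlo replicates 1 and 4 (-0.42) and turned to 0.31 with all Cyp2j reads summed. In the Cyp2j sum the RFP+ gate difference was 0.00.

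Cyp4f14, which inactivates a leukotriene of neutrophils, lies on chromosome 17 at 32905070 to 32917342. Cyp4f14 was at 9.14, 9.55, 7.37 and 7.75 CPM in RFP- MHCIIhi and at 5.3, 4.61, 5.76 and 4.7 CPM in RFP+ MHCIIhi. It was at 0, 0.0848, 0.682 and 0.43 CPM in RFP- MHCIIlo and at 1.51, 0.609, 1.45 and 1.33 CPM in RFP+ MHCIIlo. MHCIIhi libraries were all above MHCIIlo libraries, and RFP- MHCIIhi was highest. It was 26.3-fold lower in MHCIIlo among RFP- cells (-4.72, SE 0.36, adjusted p = 6.2e-11, and -5.47 without RFP- MHCIIlo replicate 3) and 4.07-fold lower among RFP+ cells (-2.03, SE 0.30, adjusted p = 5.3e-06). With the label it was lower in MHCIIhi (-0.73, SE 0.23, adjusted p = 0.013) and higher in MHCIIlo (1.96, SE 0.48, adjusted p = 0.0015). Leaving out RFP- MHCIIlo replicate 3 gave 2.71 for the latter. The MHCIIhi call was lost without RFP- MHCIIhi replicate 2 (-0.67), and with all Cyp4f reads summed the MHCIIhi difference was 0.72.

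Cyp4f39, which makes omega-hydroxy fatty acids for the skin barrier, lies on chromosome 17 at 32452723 to 32493320. Cyp4f39 was at 1.39, 1.94, 1.15 and 1.49 CPM in RFP- MHCIIhi and at 2.03, 2.98, 3.73 and 1.9 CPM in RFP+ MHCIIhi. It was at 1.06, 0.594, 0.853 and 1.29 CPM in RFP- MHCIIlo and at 2.27, 1.58, 1.25 and 3.15 CPM in RFP+ MHCIIlo. The populations overlapped in all 4 comparisons. It was called higher with the label in MHCIIlo (1.14, SE 0.37, adjusted p = 0.012) and MHCIIhi (0.84, SE 0.31, adjusted p = 0.03). The first call was lost without RFP+ MHCIIlo replicate 4 (0.84) or both replicates 1 and 4 (0.57), and in the latter fit the uncalled difference among RFP+ cells (-0.35) was called at -0.94. The second was lost without RFP- MHCIIhi replicate 1 (0.80), 3 (0.74) or 4 (0.83) and without RFP+ MHCIIhi replicate 2 (0.78) or 3 (0.63).

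Cyp4b1, a lung and bladder member, lies on chromosome 4 at 115624725 to 115647723 and gave no called difference. Cyp4b1 was at 1.25, 1.94, 1.23 and 1.21 CPM in RFP- MHCIIhi and at 0.779, 0.933, 1.54 and 0.842 CPM in RFP+ MHCIIhi. It was at 3.61, 1.1, 1.19 and 1.55 CPM in RFP- MHCIIlo and at 2.27, 0.731, 0.519 and 1.41 CPM in RFP+ MHCIIlo. Its populations overlapped in all 4 comparisons, with log2 differences from -0.55 to 0.38 (SE 0.41 to 0.45). Without both RFP+ MHCIIlo replicates 1 and 4, the label difference in MHCIIlo was called at -1.54 (adjusted p = 0.028), against -0.55 with them.

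Among the other fatty acid members, Cyp4f13 and Cyp4f17 rose toward MHCIIlo among RFP- cells, Cyp4f13 from 6.77 to 9.03 to 15.3 to 17 CPM and Cyp4f17 from 2.27 to 2.58 to 5.85 to 6.54 CPM. Cyp4f15, Cyp4f18 and Cyp2u1 rose with the label in both gates, and the highest of them was Cyp4f15 at 4.97 to 7.07 CPM in RFP+ MHCIIlo. Cyp4f40 rose with the label in MHCIIlo and fell toward MHCIIlo among RFP- cells. Cyp2j11 rose toward MHCIIlo in both label groups, while Cyp4a14, a target of the fatty acid receptor Ppara, and Cyp2j12 fell in both. Cyp2j12 had 60 reads in RFP+ MHCIIhi and 2 in RFP+ MHCIIlo, a ratio of 18.8 (95% exact interval 4.98 to 159, counting error only).

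The 4 tested steroid hormone genes were all lower in MHCIIlo than in MHCIIhi, among RFP- cells (median -4.12) and RFP+ cells (median -1.74). Of all tested genes, 35.6% and 28.1% were called lower in these comparisons. With the label 3 of the 4 rose and 0 fell in MHCIIlo (75% and 0%, against 28.9% and 22.7% of all tested genes). In MHCIIhi 1 rose and 2 fell (25% and 50%, against 23.8% and 21.2%). Cyp11b2 of aldosterone synthesis and Cyp21a1 had 76 and 22 reads in all and did not pass the read rule. Cyp11a1, the mitochondrial enzyme that starts steroid synthesis by cleaving the cholesterol side chain, lies on chromosome 9 at 58006411 to 58027023. Cyp11a1 was at 19.2, 18.3, 18.6 and 17.1 CPM in RFP- MHCIIhi and at 11.9, 9.74, 13.1 and 9.47 CPM in RFP+ MHCIIhi. It was at 0.531, 1.87, 0.512 and 0.688 CPM in RFP- MHCIIlo and at 2.92, 2.19, 6.96 and 2.57 CPM in RFP+ MHCIIlo. Each MHCIIhi library was above each MHCIIlo library. From MHCIIhi to MHCIIlo it was 19.8-fold lower among RFP- cells (-4.30, SE 0.32, adjusted p = 3.5e-11) and 3.02-fold lower among RFP+ cells (-1.59, SE 0.27, adjusted p = 2.5e-05). With the label it was lower in MHCIIhi (-0.72, SE 0.23, adjusted p = 0.012) and higher in MHCIIlo (1.99, SE 0.38, adjusted p = 0.00012). Without RFP- MHCIIlo replicate 2, the highest of its group, the differences with RFP- MHCIIlo were -4.97 and 2.64. The 6 thymocyte markers, at 223 to 484 CPM in RFP- MHCIIhi and 13.1 to 32.8 CPM in RFP- MHCIIlo, were also highest in RFP- MHCIIhi. So were the 5 cortical epithelial markers, at 1363 to 2673 CPM in RFP- MHCIIhi and 783 to 947 CPM in RFP- MHCIIlo. The part of both lists in the Cyp11a1 level was not tested.

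Cyp17a1, needed for androgens and for human cortisol, lies on chromosome 19 at 46667165 to 46673172. Cyp17a1 was at 2.88, 4.26, 2.3 and 2.76 CPM in RFP- MHCIIhi and at 9.43, 9.33, 8.94 and 9.82 CPM in RFP+ MHCIIhi. It was at 1.28, 0.17, 0.512 and 1.03 CPM in RFP- MHCIIlo and at 2.92, 3.29, 1.97 and 2.07 CPM in RFP+ MHCIIlo. RFP+ MHCIIhi was above all other libraries. It was 3.07-fold higher with the label in MHCIIhi (1.62, SE 0.24, adjusted p = 7.2e-06) and 3.46-fold higher in MHCIIlo (1.79, SE 0.36, adjusted p = 0.00023). It fell by 2.06 from MHCIIhi to MHCIIlo in RFP- and by 1.89 in RFP+ cells.

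Cyp19a1, the aromatase that makes oestrogens, lies on chromosome 9 at 54165937 to 54268110. Cyp19a1 was at 3.85, 4.52, 2.99 and 2.58 CPM in RFP- MHCIIhi and at 0.779, 1.4, 1.92 and 2.17 CPM in RFP+ MHCIIhi. It was at 0.213, 0.17, 0.171 and 0 CPM in RFP- MHCIIlo and at 0.216, 0.609, 0.104 and 0.415 CPM in RFP+ MHCIIlo. RFP- MHCIIhi was highest, and the MHCIIlo populations overlapped. It was lower in MHCIIlo among RFP- cells (-4.60, SE 0.51, adjusted p = 3.1e-08) and RFP+ cells (-2.22, SE 0.48, adjusted p = 0.00042), and lower with the label in MHCIIhi (-1.14, SE 0.33, adjusted p = 0.0073). In MHCIIlo the label difference was 1.24, SE 0.74, not called. Cyp11b1, the last enzyme of glucocorticoid synthesis, was at 1.15 to 3.22 CPM in RFP- MHCIIhi, against 0 to 0.319 CPM in RFP- MHCIIlo, and its stretches are 18.1% shared, mostly with Cyp11b2. The 3 adrenal markers Star, Nr5a1 and Cyp11b1 itself summed to 8.35 to 14.4 CPM in MHCIIhi and 1.99 to 6.23 CPM in MHCIIlo libraries.

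The 6 members of bile acid and oxysterol metabolism all passed the read rule, and 5 were tested. With the label 3 rose and 0 fell in MHCIIlo (60% and 0%, against 28.9% and 22.7% of all tested genes), and 0 rose and 1 fell in MHCIIhi (0% and 20%, against 23.8% and 21.2%). Cyp27a1, a mitochondrial sterol hydroxylase of bile acid synthesis, lies on chromosome 1 at 74713574 to 74737892. Cyp27a1 was at 12.6, 12.3, 11.1 and 9.82 CPM in RFP- MHCIIhi and at 11.8, 13.8, 12.6 and 13.1 CPM in RFP+ MHCIIhi. It was at 5.85, 7.72, 5.71 and 5.76 CPM in RFP- MHCIIlo and at 9.72, 19, 19.4 and 11.4 CPM in RFP+ MHCIIlo. RFP- MHCIIlo was below all other libraries, and the other populations overlapped. It was 2.36-fold higher with the label in MHCIIlo (1.24, SE 0.19, adjusted p = 9.2e-06) and lower in MHCIIlo than MHCIIhi among RFP- cells (-0.87, SE 0.19, adjusted p = 3e-04). The differences in MHCIIhi (0.16, SE 0.17) and among RFP+ cells (0.21, SE 0.18) were not called, but the latter was called at 0.58 without both RFP+ MHCIIlo replicates 1 and 4.

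Cyp8b1, which directs bile acid synthesis to cholic acid, lies on chromosome 9 at 121914356 to 121916305. Cyp8b1 was at 1.25, 1.1, 1.23 and 0.976 CPM in RFP- MHCIIhi and at 2.49, 1.57, 1.76 and 1.82 CPM in RFP+ MHCIIhi. It was at 0, 0, 0.0853 and 0 CPM in RFP- MHCIIlo and at 0.432, 0.488, 0.208 and 1.57 CPM in RFP+ MHCIIlo. RFP- MHCIIlo held 1 read in all, in replicate 3, against 29 in RFP+ MHCIIlo and 77 in RFP- MHCIIhi. The ratio of RFP+ to RFP- in MHCIIlo was 33 (95% exact interval 5.47 to 1348) and that of RFP- MHCIIhi to RFP- MHCIIlo was 50.8 (8.85 to 2033), with counting error only. The fitted value was 4.51, SE 0.89, adjusted p = 0.00017 for the label and, for the gate in RFP- cells, -5.17, SE 0.80, adjusted p = 4.5e-06. Without RFP- MHCIIlo replicate 3, where that group is at 0, they were 6.28 and -6.95. Without RFP+ MHCIIlo replicate 4, the highest of its group, the label difference was 3.58, and the difference among RFP+ cells went from -1.40, SE 0.43, adjusted p = 0.0086 to -2.33. Cyp7a1, the rate-limiting enzyme of bile acid synthesis on chromosome 4 at 6265612 to 6275633, had too few reads for the fit. Cyp7a1 was at 0.603, 0.581, 0.537 and 0.804 CPM in RFP- MHCIIhi and at 0.234, 0.525, 0.329 and 0.14 CPM in RFP+ MHCIIhi. It was at 0.319, 0, 0.0853 and 0.086 CPM in RFP- MHCIIlo and at 1.19, 0.366, 0.104 and 1.08 CPM in RFP+ MHCIIlo. All populations overlapped, apart from RFP- MHCIIhi, which was above RFP+ MHCIIhi and RFP- MHCIIlo in every library.

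Cyp46a1, which removes cholesterol from the brain, lies on chromosome 12 at 108334381 to 108362234. Cyp46a1 was at 1.72, 1.55, 1.3 and 1.61 CPM in RFP- MHCIIhi and at 1.79, 1.46, 1.1 and 0.912 CPM in RFP+ MHCIIhi. It was at 0.638, 0.255, 0.256 and 0.344 CPM in RFP- MHCIIlo and at 0, 0.488, 0 and 0.0829 CPM in RFP+ MHCIIlo. It was lower in MHCIIlo among RFP- cells (-2.07, SE 0.48, adjusted p = 0.00059) and RFP+ cells (-3.25, SE 0.61, adjusted p = 9.4e-05), without overlap. RFP+ MHCIIlo had 5 reads, most of them in replicate 2, and without it the RFP+ difference was -5.02. The label difference in MHCIIlo, -1.43 and not called, was then called at -3.20. Cyp7b1, the oxysterol hydroxylase that clears ligands of the chemotactic receptor Gpr183, was highest in RFP+ MHCIIlo at 18.1 ± 2.45 CPM, 0.57 above RFP- MHCIIlo and 0.73 above RFP+ MHCIIhi on the log2 scale. Cyp39a1, another oxysterol hydroxylase, was lower in RFP+ MHCIIhi than in RFP- MHCIIhi (-1.02, SE 0.20) and RFP+ MHCIIlo (1.15, SE 0.21 for MHCIIlo against MHCIIhi).

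All 3 members of vitamin D metabolism passed the read rule and were tested. Cyp24a1, which inactivates the active hormone and is itself induced by it, lies on chromosome 2 at 170482708 to 170497145. Cyp24a1 was at 4.31, 3.87, 3.38 and 2.87 CPM in RFP- MHCIIhi and at 4.52, 3.27, 4.61 and 3.37 CPM in RFP+ MHCIIhi. It was at 0, 0, 0.341 and 0.258 CPM in RFP- MHCIIlo and at 0.108, 0.122, 0.104 and 0.0829 CPM in RFP+ MHCIIlo. Each MHCIIhi library was above each MHCIIlo library. From MHCIIhi to MHCIIlo it was 21.9-fold lower among RFP- cells (-4.45, SE 0.44, adjusted p = 5e-09, and -5.17 without RFP- MHCIIlo replicate 3) and 35.4-fold lower among RFP+ cells (-5.14, SE 0.49, adjusted p = 5.4e-09), where it had 4 reads. The label made no called difference (-0.57, SE 0.86 in MHCIIlo and 0.12, SE 0.27 in MHCIIhi).

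Cyp27b1, which makes the active hormone, lies on chromosome 10 at 127048250 to 127053006. Cyp27b1 was at 1.81, 2.65, 1.92 and 1.67 CPM in RFP- MHCIIhi and at 2.73, 2.51, 2.47 and 1.82 CPM in RFP+ MHCIIhi. It was at 0, 0.509, 0.853 and 1.29 CPM in RFP- MHCIIlo and at 0, 0.609, 0 and 0.166 CPM in RFP+ MHCIIlo. MHCIIhi libraries were again above MHCIIlo libraries, with differences of -1.53, SE 0.50 among RFP- and -3.66, SE 0.65 among RFP+ cells, the latter -5.05 without RFP+ MHCIIlo replicate 2. In MHCIIlo it was called lower with the label (-1.87, SE 0.77, adjusted p = 0.047), with overlapping libraries. Leaving out any library ended that call, except RFP- MHCIIhi replicate 4, RFP- MHCIIlo replicates 1 and 2 and RFP+ MHCIIlo replicate 2, and the value was -1.36 without RFP- MHCIIlo replicate 4 and -3.27 without RFP+ MHCIIlo replicate 2. The call was also lost with voom (-1.72, adjusted p = 0.14) and without both RFP+ MHCIIlo replicates 1 and 4 (-1.26, adjusted p = 0.25). Cyp2r1, the hepatic hydroxylase that precedes it, was called in no comparison, at 0.461 to 1.32 CPM in RFP- MHCIIhi, against 0.648 to 1.22 CPM in RFP+ MHCIIlo. The vitamin D receptor gene Vdr was higher with the label in both gates (1.08 in MHCIIlo, 1.30 in MHCIIhi) and lower in MHCIIlo in both label groups.

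The 3 Cyp26 genes, which break down retinoic acid, were all lower in RFP- MHCIIlo than in RFP- MHCIIhi, where 35.6% of all tested genes were called lower. Cyp26a1 lies on chromosome 19 at 37697798 to 37701536, and its values are given because its promoter is printed, a choice made after they were seen. Cyp26a1 was at 40.8, 43.2, 43.5 and 43.2 CPM in RFP- MHCIIhi and at 26.4, 27.3, 26.6 and 32.9 CPM in RFP+ MHCIIhi. It was at 3.4, 6.28, 5.54 and 5.08 CPM in RFP- MHCIIlo and at 7.78, 9.51, 9.24 and 8.87 CPM in RFP+ MHCIIlo. No libraries of different populations overlapped, in the order RFP- MHCIIhi, RFP+ MHCIIhi, RFP+ MHCIIlo, RFP- MHCIIlo. It was 8.3-fold lower in MHCIIlo among RFP- cells (-3.05, SE 0.13, adjusted p = 2.5e-15) and 3.2-fold lower among RFP+ cells (-1.68, SE 0.13, adjusted p = 1.1e-10). Among the 72 members it had the highest level per length in RFP- MHCIIhi.

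Cyp26b1 lies on chromosome 6 at 84571414 to 84593908. Cyp26b1 was at 16.6, 15.8, 19.3 and 23.2 CPM in RFP- MHCIIhi and at 7.09, 6.59, 6.86 and 7.16 CPM in RFP+ MHCIIhi. It was at 1.49, 0.509, 1.02 and 1.38 CPM in RFP- MHCIIlo and at 5.83, 1.95, 4.88 and 2.32 CPM in RFP+ MHCIIlo. RFP- MHCIIhi was above all other libraries. With the label it was lower in MHCIIhi (-1.43, SE 0.22, adjusted p = 8e-06) and higher in MHCIIlo (1.78, SE 0.34, adjusted p = 0.00011), in both cases without overlap. From MHCIIhi to MHCIIlo it was 17.2-fold lower among RFP- cells (-4.10, SE 0.29, adjusted p = 1.2e-11) and 1.85-fold lower among RFP+ cells (-0.89, SE 0.25, adjusted p = 0.0048). Of 15 other genes of the retinoic acid pathway, 9 rose and 6 fell in the RFP- gate comparison (60% and 40%, against 33.5% and 35.6% of all tested genes, median 0.74), set beside 3 that fell and 0 that rose among the Cyp26 genes. Cyp26c1 was the lowest of these, at 1.53 to 2.32 CPM in RFP- MHCIIhi, against 0 to 0.764 CPM in RFP- MHCIIlo. Among RFP- cells the vitamin A importer Stra6 (-3.38) and the retinol-esterifying enzyme Lrat (-4.74) fell toward MHCIIlo. The retinoic acid synthesis enzymes were split, as Aldh1a1 (1.39) and Aldh1a2 (1.05) rose and Aldh1a3 fell. Aldh1a3 went from 39.7 ± 2.34 to 21.4 ± 8.39 CPM between these gates. Rdh10 of the same list fell too, from 30.3 ± 1.97 to 21.45 ± 2.02 CPM.

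Of 4 orphan or less studied members, 1 (25%) rose with the label in each gate, against 28.9% of all tested genes in MHCIIlo and 23.8% in MHCIIhi. This was Cyp2w1, known from colon tumours, and no other was called with the label. In MHCIIlo it had 21 reads in RFP+ and 3 in RFP- cells, a ratio of 7.97 (95% exact interval 2.38 to 41.7, counting error only). Cyp2ab1 lies on chromosome 16 at 20308387 to 20325404. Cyp2ab1 was at 1.34, 2, 0.614 and 1.55 CPM in RFP- MHCIIhi and at 0.546, 0.933, 1.04 and 1.26 CPM in RFP+ MHCIIhi. It was at 1.38, 0.933, 1.79 and 1.98 CPM in RFP- MHCIIlo and at 4.43, 2.07, 2.18 and 2.16 CPM in RFP+ MHCIIlo. It was higher in RFP+ MHCIIlo than in RFP+ MHCIIhi (1.49, SE 0.37, adjusted p = 0.0017), with replicate 1 the highest library. In MHCIIlo the label difference was 0.82, SE 0.37, not called, but called at 0.93 without RFP+ MHCIIlo replicate 4. Cyp2t4 rose toward MHCIIlo in both label groups, to 1.2 to 2.88 CPM in RFP- and 1.22 to 2.59 CPM in RFP+ cells. Cyp20a1 was called in no comparison, with 9.28 ± 0.954 CPM in RFP- MHCIIhi, against 9.13 ± 1.09 CPM in RFP+ MHCIIlo.

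The label difference itself was compared between the gates with a test of the difference of differences. For 18 of the 68 members it was called higher in MHCIIlo than in MHCIIhi and for 11 lower, that is 26.5% and 16.2% of members against 17.5% and 16.6% of all tested genes. Among the members described library by library, Cyp8b1 differed by 3.77, Cyp26b1 by 3.21, Cyp11a1 by 2.71, Cyp4f14 by 2.69 and Cyp19a1 by 2.38. Apart from Cyp8b1, these had called label differences below 0 in MHCIIhi. Without RFP- MHCIIlo replicate 3 the values were 5.55 for Cyp8b1 and 3.44 for Cyp4f14, and without RFP- MHCIIlo replicate 2 that of Cyp11a1 was 3.35. For Cyp8b1 it was 2.85 without RFP+ MHCIIlo replicate 4, and the call was lost without both replicates 1 and 4 (2.72). The call for Cyp19a1 was lost when RFP- MHCIIlo replicate 4 (1.97), RFP+ MHCIIlo replicate 2 (1.99) or RFP+ MHCIIlo replicate 4 (2.22) was left out, and without both RFP+ MHCIIlo replicates 1 and 4 (2.40). With Cyp4f reads summed Cyp4f14 went to -0.26. At the other end stood Cyp2f2 (-2.42), Cyp2d22 (-2.41), Cyp2j9 (-2.20) and Cyp1b1 (-1.63), the members with the lowest called values. In the chromosome 7 group, Cyp2b19 had the larger label difference in MHCIIlo (1.09, SE 0.30, adjusted p = 0.0066), and Cyp2a5 (-1.23, SE 0.16, adjusted p = 1.6e-06) and Cyp2g1 (-1.18, SE 0.19, adjusted p = 3.5e-05) had the larger in MHCIIhi. For Cyp17a1, higher with the label in both gates, the difference between the gates was not called (0.18, SE 0.43, adjusted p = 0.79).

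**Figure D5:**
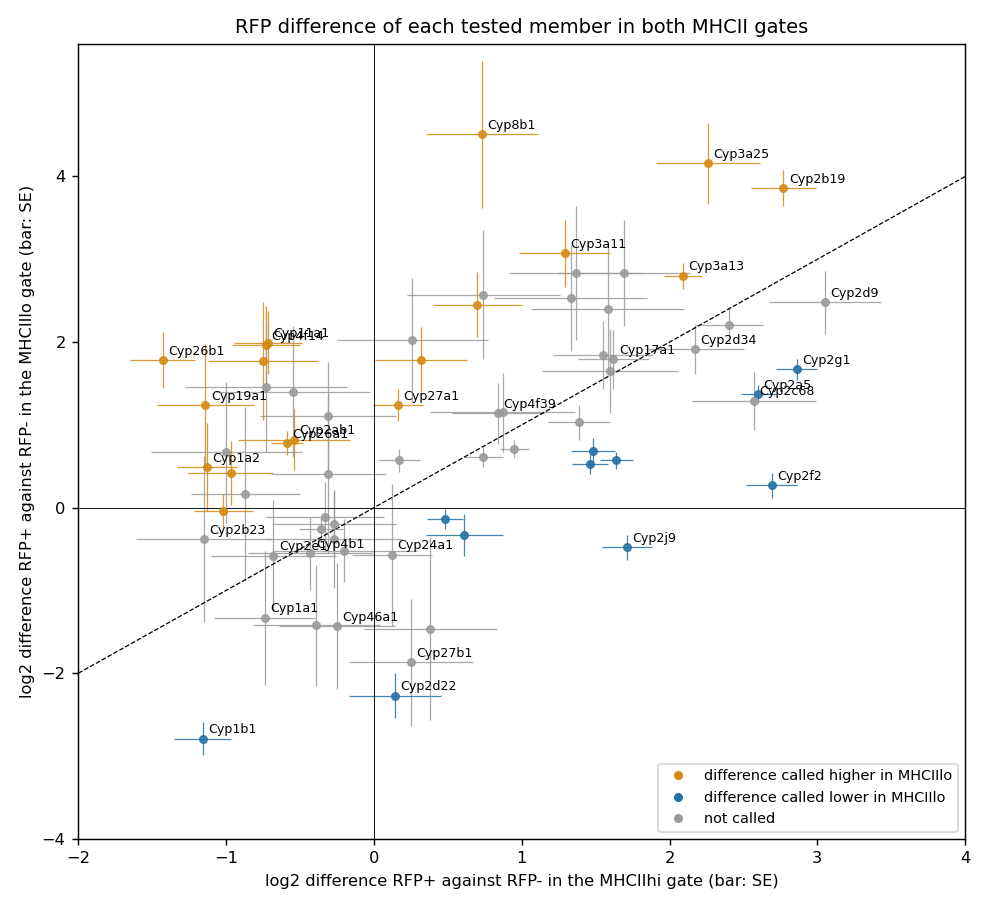
Log2 difference of RFP+ against RFP- with SE for the 68 tested members, in the MHCIIhi gate (horizontal) and the MHCIIlo gate (vertical), with the members described library by library named. Colour marks the call of the difference between the gates and the dashed line marks equal values. Cyp26b1 and Cyp11a1 lie left of 0 and above 0, and Cyp2f2 and Cyp2j9 lie far right and near 0 in height.

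Genes that work with P450 enzymes were read from lists written with earlier results known. Of all tested genes, 28.9% rose and 22.7% fell with the label in MHCIIlo, and 23.8% and 21.2% in MHCIIhi. Of 14 redox partner and haem genes, 7 rose and 0 fell with the label in MHCIIhi (50% and 0%, median 0.23). In MHCIIlo 5 rose and 2 fell (35.7% and 14.3%, median 0.10), a share of rises near that of all genes. Por rose in all 4 comparisons, by 0.34 and 0.97 with the label in MHCIIlo and MHCIIhi and by 0.43 and 1.06 from MHCIIhi to MHCIIlo in RFP+ and RFP- cells. Alas1, the rate-limiting enzyme of haem synthesis, rose with the label (1.39 in MHCIIlo, 1.45 in MHCIIhi) and fell toward MHCIIlo. Fdx1 fell toward MHCIIlo among RFP- (-0.58) and RFP+ cells (-0.52).

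Of 18 tested regulators of P450 genes, 10 rose and 3 fell with the label in MHCIIhi (55.6% and 16.7%, against 23.8% and 21.2% of all tested genes, median 0.40). In MHCIIlo 7 rose and 1 fell (38.9% and 5.56%, against 28.9% and 22.7%, median 0.59). The aryl hydrocarbon receptor gene Ahr rose with the label (0.42 and 1.17 in MHCIIlo and MHCIIhi) and toward MHCIIlo (1.75 in RFP- cells). Its known targets among the members were split in RFP- cells, where Cyp1b1 and Cyp2s1 rose and Cyp1a1 and Cyp1a2 fell toward MHCIIlo. The liver and gut factor Hnf4a rose with the label in both gates (1.83 and 0.66), and the xenobiotic receptor gene Nr1i2 did too (1.43 and 1.57). Of 15 genes listed for conjugation, the step that follows P450 oxidation, 11 rose and 1 fell with the label in each gate (73.3% and 6.67%, medians 1.74 in MHCIIlo and 2.08 in MHCIIhi). The list holds Nqo1, a quinone reductase that does not conjugate, and this was the 1 that fell. Ugt2b35 rose by 5.62 in MHCIIlo, from 0.027 ± 0.053 CPM in RFP- to 1.58 ± 0.87 CPM in RFP+ cells. The size of that difference rests on a level near 0 in RFP- cells and is uncertain. Gsta4 rose by 2.76 in MHCIIhi, and Nqo1 fell in both gates (-1.13 and -0.62).

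Of 17 genes of eicosanoid synthesis and breakdown, 12 rose and 4 fell with the label in MHCIIlo (70.6% and 23.5%, against 28.9% and 22.7% of all tested genes, median 0.86). In MHCIIhi 14 rose and 0 fell (82.4% and 0%, against 23.8% and 21.2%, median 0.97). Alox12b, a lipoxygenase of the skin barrier, rose by 3.30 in MHCIIlo, and Alox5, which starts leukotriene synthesis, by 2.74 in MHCIIhi. Of 12 tested partners of steroid synthesis, 2 rose and 8 fell toward MHCIIlo in RFP- cells (16.7% and 66.7%, against 33.5% and 35.6% of all tested genes, median -0.88) and 1 rose and 6 fell in RFP+ cells (8.33% and 50%, against 27.5% and 28.1%, median -0.70), the direction of the 4 steroid P450 genes. Among them Hsd3b1, which acts after Cyp11a1, fell by 6.79 in RFP- cells, from 6.0 ± 0.50 to 0.043 ± 0.085 CPM. The size of this fall rests on a level near 0 in RFP- MHCIIlo and is uncertain. Star, the cholesterol carrier into mitochondria, fell by 1.36 in the same cells. Of 10 sterol and oxysterol partners, 8 rose and 2 fell with the label in MHCIIlo (80% and 20%, median 0.50) and 7 rose and 0 fell in MHCIIhi (70% and 0%, median 0.48), with Ch25h, which makes an oxysterol, among the 2 that fell (-1.83). The medians of all tested genes for these comparisons are those given above.

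The 27 members under the read rule were Cyp2a4, Cyp2a22, Cyp2b9, Cyp2b13, Cyp2c38, Cyp2c39, Cyp2c40, Cyp2c50, Cyp2c54, Cyp2c66, Cyp2c67, Cyp2c69, Cyp2d11, Cyp2d40, Cyp2j5, Cyp2j7, Cyp2j8, Cyp3a41a, Cyp3a41b, Cyp3a59, Cyp4a10, Cyp4a30b, Cyp4a31, Cyp4a32, Cyp4x1, Cyp11b2 and Cyp21a1, most of them hepatic genes with close copies. Members with close copies need care. Of the 99 members, 43 share more than 10% of their 50-base stretches with another annotated gene, 20 of them among the 72, and 5 share more than 50%. Near-identical pairs among the 72 were Cyp4a12a and Cyp4a12b (48.9% and 49.5% shared), and Cyp4f16 shared 26.5%, mostly with Cyp4f37. Of the Cyp2 genes with high levels, Cyp2b19 shared 2.45%, Cyp2g1 5.79% and Cyp2f2 10.0%. Cyp1b1, Cyp11a1, Cyp17a1, Cyp19a1, Cyp26a1, Cyp26b1, Cyp27a1, Cyp27b1 and Cyp3a13 shared under 0.1%. The sources used here do not give whether reads were counted by strand. Antisense or overlapping genes could therefore add to a member's reads.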

How the data were processed

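The 16 polyA RNA-seq libraries were deposited by the authors as raw counts per Ensembl gene, which were used unscaled. The submitters' processing notes name STAR, the genome build GRCm38 and DESeq2. For the counting tool, the annotation release and the use of strand, a name was not given in the sources used here. Of 43432 gene identifiers, 42548 matched GENCODE M21, and 884 others, with 0.098% of reads, had no symbol. Totals were 7.93 to 19.46 M reads, and low members are limited by counting.

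Groups came from the sample labels. Counts were fitted with edgeR 4.0.16 (R 4.3.3), with TMM scaling, filterByExpr (minimum count 10, minimum total 15) and quasi-likelihood tests over all 16 libraries with 1 mean per population. P-values were adjusted by Benjamini-Hochberg over 19617 genes per comparison, with a threshold of 0.05, and SE is the log2 difference divided by the root of F. Other fits used DESeq2 1.42.0, limma 3.58.1 (voom), other filters and scaling, a replicate block, each library left out, RFP+ MHCIIlo replicates 1 and 4 left out, and subfamilies summed. The script was tested on simulated data. Ratios with 3 reads or fewer in a population have exact binomial intervals (95%), which cover counting error only.

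The members, lists and sentinels were chosen with earlier results of these data known. Values in every library are given for 17 sentinels and for the 4 largest called differences in each direction per pairwise comparison, where the higher population averaged 1 CPM or more, 31 members in all, and for Cyp26a1. The other 10 members with printed differences were refitted in the same way. Shared sequence is the percent of 50-base stretches of GENCODE M21 transcripts that occur in another gene.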

Additional observations from a re-analysis of the deposited data

Results flagged for a closer look

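In 15 of 128 groups of 4 libraries, 1 library stood far from the other 3 for its size of spread. About 1 in 20 groups of normally distributed values would pass this cut-off. Some groups here hold only a few reads, such as Cyp8b1 in RFP- MHCIIlo, so the 15 cannot be read against that rate. High libraries were RFP- MHCIIhi replicate 1 for Cyp2f2 (12.6 CPM, next 10.1), RFP- MHCIIhi replicate 2 for Cyp4b1 (1.94, next 1.25) and Cyp2d9 (0.323, next 0.232), and RFP- MHCIIhi replicate 3 for Cyp2c68 (0.46, next 0.23). RFP+ MHCIIhi replicate 4 was high for Cyp3a11 (3.37 CPM, next 2.62) and Cyp26a1 (32.9, next 27.3). In RFP- MHCIIlo, replicate 2 was high for Cyp11a1 (1.87 CPM, next 0.688) and Cyp27a1 (7.72, next 5.85), and replicate 3 for Cyp3a13 (4.61, next 3.05) and Cyp8b1 (0.0853, the others 0). In RFP+ MHCIIlo, replicate 3 was high for Cyp11a1 (6.96 CPM, next 2.92), replicate 2 for Cyp46a1 (0.488, next 0.0829) and replicate 1 for Cyp2ab1 (4.43, next 2.18). RFP+ MHCIIlo replicate 1 was low for Cyp2d34 (3.78 CPM, next 7.31), and RFP- MHCIIhi replicate 1 for Cyp26a1 (40.8, next 43.2).

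The log2 label difference was called unequal between the gates, by edgeR's test of MHCIIlo minus MHCIIhi, for 19 of the members described library by library. The signed value in MHCIIlo was above that in MHCIIhi for Cyp8b1 (3.77), Cyp26b1 (3.21), Cyp11a1 (2.71), Cyp4f14 (2.69), Cyp19a1 (2.38), Cyp3a25 (1.9), Cyp3a11 (1.78), Cyp1a2 (1.61), Cyp26a1 (1.38), Cyp2ab1 (1.36), Cyp2b19 (1.09), Cyp27a1 (1.08) and Cyp3a13 (0.71). It was below that in MHCIIhi for Cyp2f2 (-2.42), Cyp2d22 (-2.41), Cyp2j9 (-2.2), Cyp1b1 (-1.63), Cyp2a5 (-1.23) and Cyp2g1 (-1.18). Of these, Cyp1b1 and Cyp2d22 had label differences below 0 in MHCIIlo (-2.79 and -2.27), farther from 0 than those in MHCIIhi (-1.16 and 0.14). The Cyp3a25 call was lost without RFP- MHCIIhi replicate 3 (1.71) or RFP- MHCIIlo replicate 2 (1.92) or 3 (1.47), and with voom (1.95). The Cyp1a2 call was lost without RFP- MHCIIhi replicate 3 (1.53), RFP- MHCIIlo replicate 1 (1.41), 2 (1.26) or 3 (1.60), or RFP+ MHCIIlo replicate 2 (1.58) or 3 (0.75), and the value was 2.41 without RFP- MHCIIlo replicate 4. It was also lost with DESeq2 (1.66, adjusted p = 0.055) and voom (1.62, adjusted p = 0.057). The Cyp2ab1 call (adjusted p = 0.049) was lost without any of 10 libraries, with values from 1.02 to 1.45, with voom (1.27, adjusted p = 0.068), with no filter on low counts (1.34, adjusted p = 0.059) and without both RFP+ MHCIIlo replicates 1 and 4 (1.02).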

How the results depend on the processing

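Counts of called members, higher and lower, with each library left out ranged from 35 to 39 and 2 to 6 for the label in MHCIIlo, where the 2 came without RFP- MHCIIlo replicate 3. They were 23 to 30 and 8 to 13 for the label in MHCIIhi, 15 to 19 and 35 to 37 for the gates in RFP- cells, 14 to 16 and 23 to 26 for the gates in RFP+ cells, and 15 to 19 and 10 to 13 for the difference between gates. With subfamilies summed, which leaves fewer features, the counts were 21 and 2 for the label in MHCIIlo, 13 higher in MHCIIhi, 10 and 19 for the gates in RFP- cells, 9 higher in RFP+ cells, and 7 lower for the difference. With only the 2 populations compared, 17 were lower with the label in MHCIIhi. The cause of that was not tested.

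Same-numbered libraries correlated at -0.007 to 0.17 in their deviations, over 0.1 in 11 of 24 pairs, and 20 of 24 correlated best with their own number, a hint from the data and not from the design. With the replicate block the counts were 38 and 3 for the label in MHCIIlo, 26 and 10 in MHCIIhi, 19 and 34 for the gates in RFP- cells, 15 and 23 in RFP+ cells, and 17 and 11 for the difference. Among printed differences, the block changed the call of Cyp2b19 between the gates in RFP- cells (0.50, called), of Cyp2f2 and Cyp27b1 with the label in MHCIIlo (0.31, called, and -1.87, not called) and of Cyp2ab1 for the difference (1.32, not called). Libraries of a population differed by 3.2 to 37.16 times the sampling noise (chi-square per degree of freedom).

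Of 184 printed differences of members, 142 were called, and 28 of these lost the call or turned under at least 1 of the 25 alternatives. Of 4558 refitted values, 42 turned their sign, 13 of them from called differences. With subfamilies summed, where another gene of the subfamily can dominate the sum, the value with the label in MHCIIlo turned to 0.16 for Cyp1a1, 0.92 for Cyp2d22, 0.31 for Cyp2j9 and 3.78 for Cyp2b23. With the label in MHCIIhi it turned to 2.29 for Cyp2b23 and Cyp2b10 and 0.72 for Cyp4f14. For the gates it turned in RFP+ cells to 1.56 for Cyp2b23 and Cyp2b10, -0.57 for Cyp3a11, -0.49 for Cyp2c68, 0.16 for Cyp2a12 and 0.00 for Cyp2j9 and Cyp2j6. In RFP- cells it turned to 0.06 for Cyp2b23 and Cyp2b10, -1.66 for Cyp2c68 and 1.36 for Cyp2a12, and the difference between gates to -0.26 for Cyp4f14. The other turns were of uncalled differences, and their cause was not tested. Over the fits that each leave out 1 library, the label difference in MHCIIlo ran from -0.38 (RFP+ MHCIIlo replicate 3 out) to 1.28 for Cyp1a2, from -0.80 to 0.13 (RFP- MHCIIlo replicate 4 out) for Cyp2b23, from -0.99 to 0.15 (RFP- MHCIIlo replicate 3 out) for Cyp24a1 and from -0.22 to 0.08 for Cyp39a1. That in MHCIIhi ran from -0.03 to 0.35 for Cyp2d22. The gate difference in RFP+ cells ran from -0.51 to 0.09 for Cyp1b1, from -0.30 to 0.10 for Cyp3a25, from -0.18 to 0.53 for Cyp4b1 and from -0.06 to 0.36 for Cyp2d9. In RFP- cells it ran from -0.13 to 0.57 for Cyp4b1, from -0.09 to 0.34 for Cyp2ab1 and from -0.06 to 0.20 for Cyp2j13. Cyp24a1 also turned with voom (0.28), and without RFP+ MHCIIlo replicates 1 and 4 Cyp2e1 turned with the label in MHCIIlo (0.09) and Cyp4b1 and Cyp2d9 between the gates in RFP+ cells (-0.75 and -0.06). Called differences also moved by over 1.5 times, without losing the call, in RFP+ cells between the gates without RFP+ MHCIIlo replicates 1 and 4 for Cyp27b1 (-3.04), Cyp46a1 (-2.49), Cyp1a2 (-3.34), Cyp2b23 (-3.19) and Cyp8b1 (-2.46), and with voom in RFP- cells for Cyp2e1 (-2.85) and Cyp8b1 (-4.29). The Cyp8b1 label difference in MHCIIlo was 3.35 with voom and 3.46 without those replicates. The difference between gates was 2.66 for Cyp8b1 with voom and 2.38 for Cyp1a2 without those replicates. Scaling by DESeq2 size factors moved the median of all genes by less than 0.1 in each comparison. Members with few reads in MHCIIlo, such as Cyp8b1, Cyp2c55, Cyp46a1 and Cyp24a1, are limited by depth there, and a level near 0 does not show absence.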
